A study of Mus musculus with 15 samples.

Results

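The Id, Hes and Hey genes encode helix-loop-helix proteins that hold back differentiation. In enriched mouse cerebellar cells, 10 of them (Id1, Id2, Id3, Id4, Hes1, Hes5, Hes6, Hey1, Hey2 and Heyl) were followed. The 10 were chosen by name, as the 4 Id, 3 Hes and 3 Hey genes listed, from a table of 21889 genes, and all 10 had enough counts to be tested. The study profiled poly(A) RNA of granule neuron precursors, the dividing cells that form cerebellar granule neurons, and of medulloblastoma cells, a tumour that can arise from these precursors. Precursors came from E15.5 embryos with the genotype label Math1-GFP (E for embryonic day), and from wild-type pups at postnatal days 1, 7 and 14 (P1, P7 and P14). The tumour cells (MB) are labelled Ptch1 heterozygous, without an age. Each group has 3 libraries, 15 in all. Cells of every group were enriched on Percoll, and the labels do not say whether GFP was also used for sorting, whether animals were pooled, or whether the 3 libraries of a group came from separate animals or tumours. The p-values therefore measure only the spread between these samples, which may be technical. E15.5 differs from the other ages in genotype label as well as in age, and these cannot be told apart.

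Id proteins have a helix-loop-helix domain but no basic region, so they bind E proteins without binding DNA and keep them from pairing with proneural factors. BMP signals acting through Smad proteins are a known inducer of Id genes. Hes and Hey proteins do bind DNA and are known direct targets of Notch through the factor RBPJ. The Hes repressors recruit Groucho/TLE corepressors. Hes6 is the exception in its family, since it is known to oppose Hes1 and to be induced by proneural factors. In the cerebellum, Notch and Id genes are also expressed in Bergmann glia and astrocytes, and Heyl is known from smooth muscle and pericytes of blood vessels.

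The sequences just upstream of the start sites are shown for 4 genes, because they carry letters that Notch and BMP factors are known to bind. Windows were matched for 6 of the 10 genes in RefSeq sequence of GRCm38.p6: Id2, Id3, Id4, Hes5, Hes6 and Hey2. Each window is the 250 bases before the start, printed 5′ to 3′ on the gene's strand, and capitals mark GTGGGAA (an RBPJ site) or GGCGCC (a BMP Smad site), searched on both strands. These motifs do not overlap each other in the windows printed.
Hes5, chr4:154960673-154960922, plus strand: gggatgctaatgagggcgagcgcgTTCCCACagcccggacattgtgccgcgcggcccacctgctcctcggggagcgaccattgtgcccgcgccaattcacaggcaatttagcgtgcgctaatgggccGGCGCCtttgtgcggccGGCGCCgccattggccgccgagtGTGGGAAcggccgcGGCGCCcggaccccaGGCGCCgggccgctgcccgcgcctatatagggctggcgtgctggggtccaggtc
Hey2, chr10:30842784-30843033, minus strand: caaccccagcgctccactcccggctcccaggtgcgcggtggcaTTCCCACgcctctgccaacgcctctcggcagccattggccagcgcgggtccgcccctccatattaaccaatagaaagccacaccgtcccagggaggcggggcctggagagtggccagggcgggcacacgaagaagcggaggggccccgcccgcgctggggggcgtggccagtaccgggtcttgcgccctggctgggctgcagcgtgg
Id4, chr13:48260866-48261115, plus strand: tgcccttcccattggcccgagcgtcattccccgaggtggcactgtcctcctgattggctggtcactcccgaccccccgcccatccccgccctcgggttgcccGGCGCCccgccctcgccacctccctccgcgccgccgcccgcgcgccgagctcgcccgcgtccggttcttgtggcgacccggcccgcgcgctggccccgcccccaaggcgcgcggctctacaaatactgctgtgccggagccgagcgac
Id2, chr12:25096093-25096342, minus strand: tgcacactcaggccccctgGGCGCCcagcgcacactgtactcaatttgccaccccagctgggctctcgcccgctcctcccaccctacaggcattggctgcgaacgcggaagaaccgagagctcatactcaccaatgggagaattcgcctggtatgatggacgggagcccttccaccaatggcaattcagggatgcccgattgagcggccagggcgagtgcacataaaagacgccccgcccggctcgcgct

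The Hes5 window holds 2 copies of GTGGGAA, at 226 and 83 bases before the start, and 4 copies of GGCGCC, at 123, 106, 69 and 54 bases before it. The Hey2 window holds 1 GTGGGAA, at 207 bases. The windows of Id4 and Id2 hold 1 GGCGCC each, at 148 and 231 bases. Neither motif occurs in the windows of Id3 and Hes6. GTGGGAA occurs in 5.42% and GGCGCC in 9.59% of the 32851 windows of this length in the table. These are letter matches only, and no binding was measured here.

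All 15 libraries together held 12597472 to 43443132 gene counts each, with 15818 to 17286 genes having a count. The libraries fall into 2 sets, here called counting sets, seen at the gene Tsnax. Its gene count is at most 0.273% of its transcript count in 6 libraries (E15.5 replicates 1 and 3, all of P7, MB replicate 1). In the other 9 it is at least 92.4%. The labels do not name these sets or say how they arose. For the 10 genes followed here, the gene count was 95.8% to 100% of the transcript count in every library. All 12 precursor marker genes read were detected in every library. Their summed levels ran from 3904 CPM (counts scaled to a common library total) at the lowest in E15.5 to 9791 at the highest in MB. Detection does not measure purity, since all 10 astroglia and Bergmann glia markers were also detected in every library. Their sums at P14 were 4160 to 5498 CPM, beside 5284 to 5951 for the precursor markers. Atoh1, the factor that defines the precursors, averaged 129, 47.7, 30.6 and 11.9 CPM at E15.5, P1, P7 and P14, and 280 in MB. Gabra6, a receptor subunit of mature granule neurons, had no count in any E15.5 library and 161 to 202 CPM at P14, and it reached 102 CPM in P1 replicate 3 against 1.12 in the lowest P1 library. P1 replicate 3 and MB replicate 1 stand apart from their groups, and results that rest on them are given without them as well. Of the records in MB replicate 1, 44.6% aligned several times, against 32% and 30.7% in MB replicates 2 and 3. The share was 42.2% in E15.5 replicate 3, against 32.5% and 32.3% in E15.5 replicates 1 and 2. Its part in the levels was not tested.

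**Figure D1:**
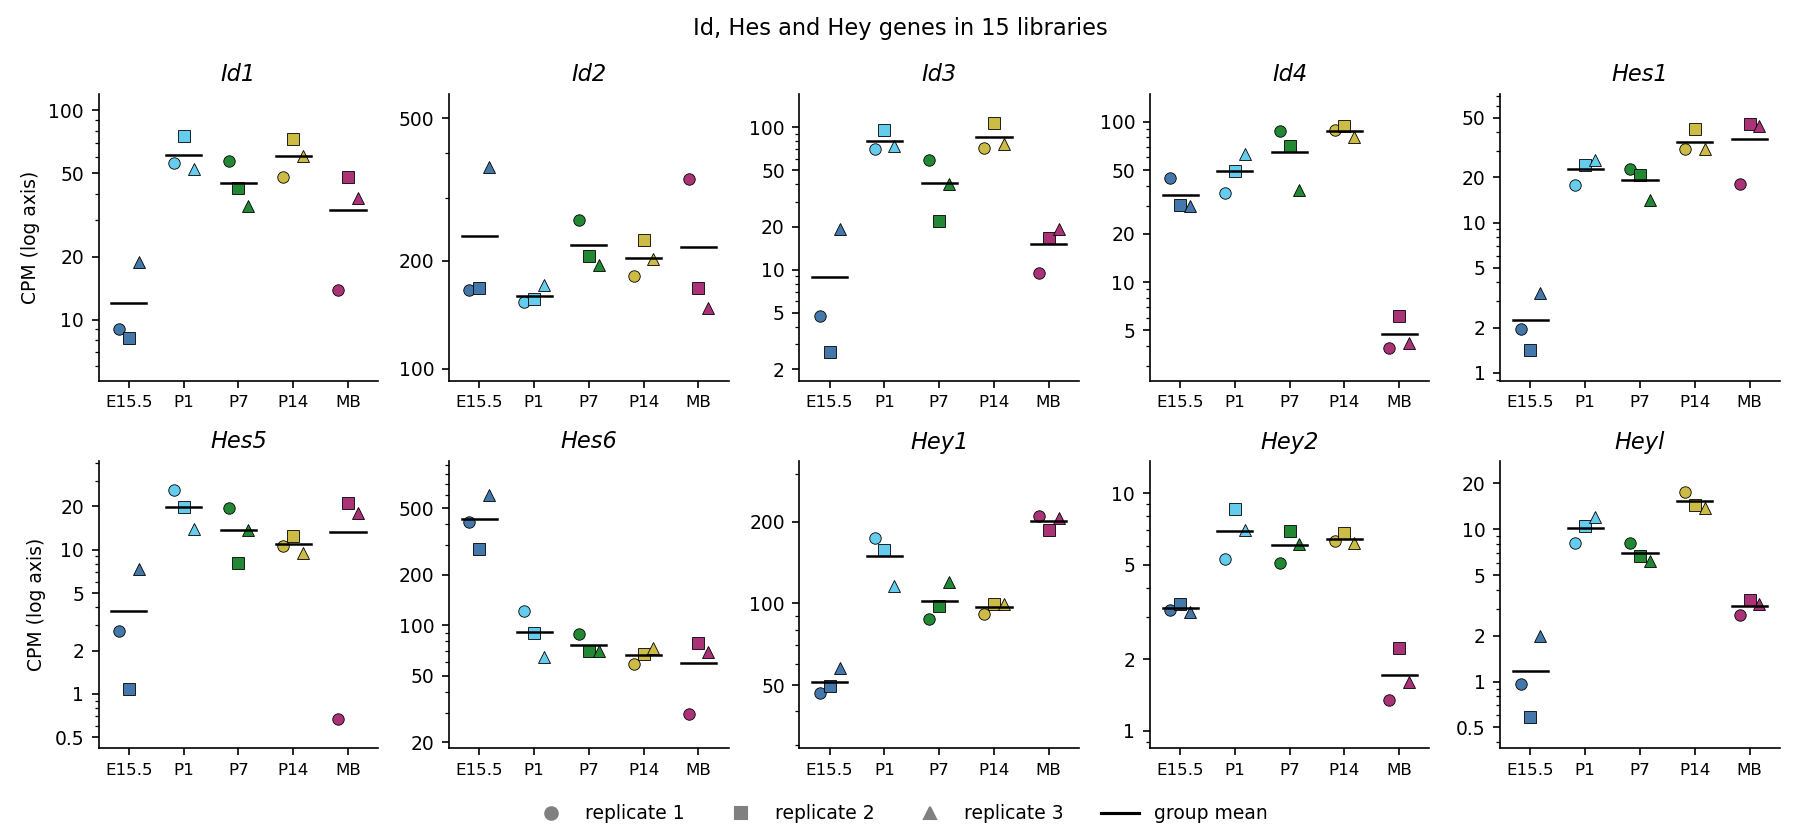
Level of each gene in CPM (log axis, its own range in each panel) in the 15 libraries by group, with marker shape for the replicate and a line for the group mean. Id4, Hey2 and Heyl were lower in all 3 MB libraries than in any P7 or P14 library, and Hey1 was higher. MB replicate 1 is the lowest MB symbol for every gene except Id2 and Hey1.

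The first comparison asked how the genes differed between E15.5 and P1. Between these groups 7 of the 10 genes rose and 1 fell, at a false discovery rate (FDR) under 0.05 in edgeR's quasi-likelihood test over 15259 genes. Id1, Id3, Hes1, Hes5, Hey1, Hey2 and Heyl were higher at P1, and Hes6 was lower. Over all genes tested, 25.4% were called higher and 20.9% lower at P1. The median log2 fold change of the 10 genes was 1.93, against 0.03 over all genes tested.

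Hes1, the Notch target that keeps neural progenitors undifferentiated, is a 4-exon gene (mm9, chr16:30065426-30067882, plus strand). It had 1.96, 1.42 and 3.39 CPM in E15.5 replicates 1 to 3, and 17.8, 24.0 and 26.1 CPM in P1 replicates 1 to 3. The ranges were far apart, and every P1 library was above every E15.5 library. The rise was 9.66-fold, a log2 fold change of 3.27 ± 0.38 (SE, n = 3 per group, edgeR FDR 1.15e-05).

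Hes5, a second Notch target, had 2.75, 1.09 and 7.38 CPM at E15.5 and 25.7, 19.7 and 13.8 CPM at P1 (mm9, chr4:154335032-154336480, plus strand). The groups did not overlap, but both spread widely. The log2 fold change was 2.35 ± 0.81 (SE, n = 3 per group, edgeR FDR 0.0274). This call was lost without E15.5 replicate 1 (log2 2.15, FDR 0.0877) or replicate 2 (1.95, FDR 0.0864), and without P1 replicate 1 (2.11, FDR 0.0672) or replicate 2 (2.35, FDR 0.0529). With the counting set as a term in the edgeR model it was 1.07 (FDR 0.636), and within the set that holds E15.5 replicate 2 alone and the P1 libraries it was 4.18 (FDR 0.00123). Without E15.5 replicate 3 it was 3.26 (edgeR FDR 0.0174).

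Hes6 went the other way (mm9, chr1:93308060-93309799, minus strand). The E15.5 libraries had 411, 284 and 597 CPM, the P1 libraries 121, 89.6 and 64.6 CPM. Every E15.5 library was far above every P1 library. The fall was 4.70-fold (log2 -2.23 ± 0.34, SE, n = 3 per group, edgeR FDR 1.19e-04). Hes6 was the only member called lower at P1 by edgeR.

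Id1 and Id3, inhibitors that often act together, were both low at E15.5. Id1 (mm9, chr2:152561987-152563146, plus strand) had 8.98, 8.18 and 18.9 CPM at E15.5 and 55.8, 75.2 and 52.3 at P1. Id3 (mm9, chr4:135699412-135701307, plus strand) had 4.75, 2.67 and 19.5 CPM at E15.5 and 70.2, 95.8 and 74.4 at P1. In both genes E15.5 replicate 3 was the highest of its group, and it was still below every P1 library. Id1 rose 5.03-fold (log2 2.33 ± 0.41, SE, n = 3 per group, edgeR FDR 3.55e-04) and Id3 rose 8.68-fold (log2 3.12 ± 0.57, edgeR FDR 4.64e-04). Without E15.5 replicate 3 the Id3 rise was 20.4-fold (log2 4.35, edgeR FDR 2.12e-05).

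Id2 and Id4 did not pass the test in this comparison. Id2 (mm9, chr12:25778666-25780957, minus strand) had 166, 168 and 367 CPM at E15.5 and 153, 156 and 171 CPM at P1. E15.5 replicate 3 was again the high library, and the other 2 E15.5 values lay inside the P1 range. The log2 fold change was -0.55 ± 0.32 (SE, n = 3 per group, edgeR FDR 0.174). For Id4 (mm9, chr13:48356796-48359405, plus strand) the values were 44.7, 30.2 and 30.0 CPM at E15.5 and 35.7, 49.2 and 62.8 at P1, with overlapping groups and a log2 fold change of 0.49 ± 0.29 (edgeR FDR 0.183).

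The 3 Hey genes, Notch targets best known from heart and vessels, all rose. Hey1 (mm9, chr3:8663362-8667039, minus strand) had 46.9, 49.5 and 57.9 CPM at E15.5 and 174, 157 and 116 CPM at P1, with no overlap and a 2.90-fold rise (log2 1.53 ± 0.18, SE, n = 3 per group, edgeR FDR 9.09e-06). Heyl (mm9, chr4:122910799-122927118, plus strand) had 0.960, 0.585 and 2.00 CPM at E15.5 and 8.11, 10.5 and 12 at P1, a rise of 8.14-fold (log2 3.02 ± 0.35, edgeR FDR 9.32e-06). Without E15.5 replicate 3 the Heyl rise was 12.3-fold (log2 3.62, edgeR FDR 3.95e-06). Both genes separated the groups completely, though Heyl did so at a low level.

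Hey2, at 3.23, 3.42 and 3.15 CPM at E15.5 and 5.28, 8.53 and 6.97 CPM at P1, had the smallest called change (mm9, chr10:30552165-30562607, minus strand). The E15.5 libraries were nearly equal and all below P1. Its log2 fold change was 1.09 ± 0.26 (SE, n = 3 per group, edgeR FDR 0.00337). Within the counting set that holds E15.5 replicate 2 and the P1 libraries it was 1.02 (edgeR FDR 0.0503). That set has 1 E15.5 library, and its fit assumes that this lone library varies as the other groups do. In it the other 7 called genes kept their direction and an FDR under 0.05 (4527 of the 15259 genes were under it), with log2 fold changes of 4.90 for Id3, 4.12 for Heyl, 3.99 for Hes1, 2.90 for Id1, 1.59 for Hey1 and -1.63 for Hes6 beside the value for Hes5 above. Leaving out P1 replicate 3 left all 8 calls in place, from 3.17 for Id3 to -2.04 for Hes6.

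Markers of other cell types were also higher at P1. Of the astroglia and Bergmann glia list 10 of 10 genes rose, with summed levels of 412 to 557 CPM at E15.5 and 3218 to 4780 CPM at P1. The endothelium list rose in 10 of 10 genes, from 25.5 to 59.6 CPM up to 460 to 694 CPM. The pericyte and smooth muscle list rose in 9 of 9 genes, from 37.3 to 64.0 CPM up to 383 to 747 CPM. The oligodendrocyte list rose in 8 of 8 genes (67.9 to 102 CPM at E15.5, 584 to 3540 at P1) and the microglia and macrophage list in 7 of 8 (5.51 to 22.1 CPM, then 76.0 to 138). In 6 of 7 genes the GABAergic interneuron list fell, and 1 rose (476 to 610 CPM, then 184 to 283). Every marker of the astroglia, endothelium, pericyte and microglia lists had a count in each E15.5 library. The part of these cells in the changes of the Id, Hes and Hey genes was not tested. In bulk RNA, fewer cells of a type and less RNA per cell cannot be told apart.

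**Figure D2:**
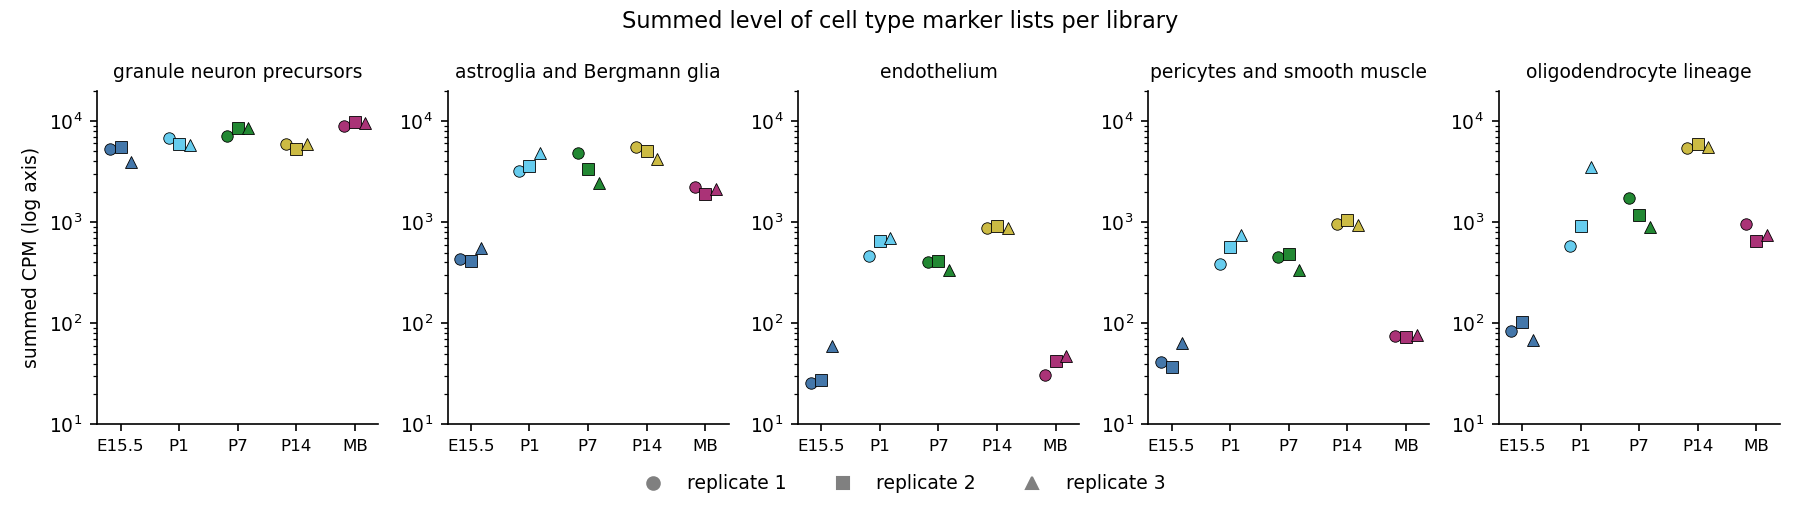
Summed CPM (log axis) of 5 cell type marker lists in each library by group; a symbol is 1 library. The endothelium sum was 25.5 to 59.6 CPM at E15.5, 335 to 914 CPM in the postnatal libraries and 30.6 to 47.3 CPM in MB, and the pericyte sum was 37.3 to 64.0, 336 to 1059 and 73.1 to 76.8 CPM.

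Between P1 and P7 none of the 10 genes was called by edgeR, where 1.4% of the 15259 genes were called higher in P7 libraries and 1.74% lower. At an unadjusted p under 0.05 there was 1 gene, Hey1, which DESeq2 also called. Hey1 had 87.9, 97.9 and 120 CPM at P7, so the highest P7 library overlapped the lowest P1 library. The log2 fold change was -0.55 ± 0.17 (SE, n = 3 per group, edgeR FDR 0.0897), and without P1 replicate 3 it was -0.70 (edgeR FDR 0.0298). The Id3 values at P7 were 59.4, 22.0 and 39.9 CPM, all below P1, with a log2 fold change of -0.99 ± 0.52 (SE, n = 3 per group, edgeR FDR 0.314). The P7 spread of Id3 was wide, with replicate 2 lowest. The median log2 fold change of the 10 genes was -0.35, against -0.01 over all genes. These 2 ages lie in different counting sets, so no value within a counting set exists for this step.

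Between P7 and P14 the only called member was Heyl, which rose (5.81% of all genes were called higher at P14 and 4.51% lower). Heyl had 8.12, 6.68 and 6.20 CPM at P7 and 17.5, 14.3 and 13.7 CPM at P14. The P14 libraries were all above the P7 libraries. The rise was 2.16-fold (log2 1.11 ± 0.31, SE, n = 3 per group, edgeR FDR 0.0361). The call was lost when any 1 of the 6 libraries was left out, with log2 fold changes of 1.00 (without P14 replicate 1) to 1.21 (without P7 replicate 1) and edgeR FDRs of 0.0612 to 0.133. In these fits 125 to 1077 genes were called over all genes tested, against 1574 with every library. With the counting set as a term the Heyl value was 1.43 (edgeR FDR 0.123). P7 and P14 lie in different counting sets, so no value within a counting set exists for this step. The term rests on E15.5 and MB, the only groups with libraries in both sets.

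Markers of several cell types were also higher at P14. Of the pericyte and smooth muscle list 4 of 9 genes rose, with sums of 336 to 481 CPM at P7 and 935 to 1059 CPM at P14, and the endothelium list rose in 3 of 10, from 335 to 415 CPM up to 870 to 914 CPM. The oligodendrocyte list had 2 genes higher and 1 lower of 8 (894 to 1741 CPM at P7, 5394 to 5869 at P14), and 5 of 9 granule neuron markers rose (3623 to 3898 CPM, then 4205 to 5236). The astroglia list rose in 1 of 10 genes and the microglia and macrophage list in 1 of 8, while 4 of 7 GABAergic interneuron genes, 3 of 12 precursor genes and 1 of 7 Purkinje cell genes fell. Their part in the Heyl value was not tested.

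Hes1 and Id3 had P14 values above all P7 values without passing the test. Hes1 had 22.6, 20.8 and 14.2 CPM at P7 and 31.0, 41.9 and 30.9 CPM at P14 (log2 0.85 ± 0.34, SE, n = 3 per group, edgeR FDR 0.121). Id3 reached 71.3, 108 and 76.9 CPM at P14 (log2 1.08 ± 0.53, SE, n = 3 per group, edgeR FDR 0.193). When the 2 ages were fitted alone, both were called along with Heyl, in a fit that called 3838 of 14810 genes.

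Between P1 and P14 the only called member was Hey1, which fell (5.31% of all genes were called lower at P14 and 3.63% higher). Its P14 libraries had 91.1, 99.7 and 99.1 CPM, below the lowest P1 library. The log2 fold change was -0.63 ± 0.17 (SE, n = 3 per group, edgeR FDR 0.0378). It was -0.63 within the 1 counting set that holds both ages (edgeR FDR 0.0258), and -0.78 without P1 replicate 3 (edgeR FDR 0.00608). The call was lost without P1 replicate 1 (log2 -0.50, FDR 0.211) or replicate 2 (-0.59, FDR 0.162) and without P14 replicate 1 (-0.58, FDR 0.121), 2 (-0.65, FDR 0.115) or 3 (-0.64, FDR 0.114), all in edgeR. In these fits 154 to 294 genes were called over all genes tested, against 1364 with every library.

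Id4 had 87.9, 70.2 and 37.4 CPM at P7 and 88.2, 93.7 and 80.1 CPM at P14. Its P14 libraries lay above all 3 P1 libraries. The log2 fold change from P1 to P14 was 0.83 ± 0.29 (SE, n = 3 per group, edgeR FDR 0.0865), and without P1 replicate 3 it was 1.04 (edgeR FDR 0.0419). Id4 thus crossed the threshold only in some of the fits run. Between P1 and P14 Hes5 went from the P1 values above to 10.6, 12.5 and 9.49 CPM, with no overlap and a log2 fold change of -0.86 ± 0.77 (SE, n = 3 per group, edgeR FDR 0.505).

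Tested over the 4 ages at once, 8 of the 10 genes differed, against 55.7% of all genes. Id2 (edgeR FDR 0.432) and Hes5 (edgeR FDR 0.108) did not. Id2 stood between 153 and 367 CPM in every one of the 12 precursor libraries, and between 148 and 339 CPM in MB.

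**Figure D3:**
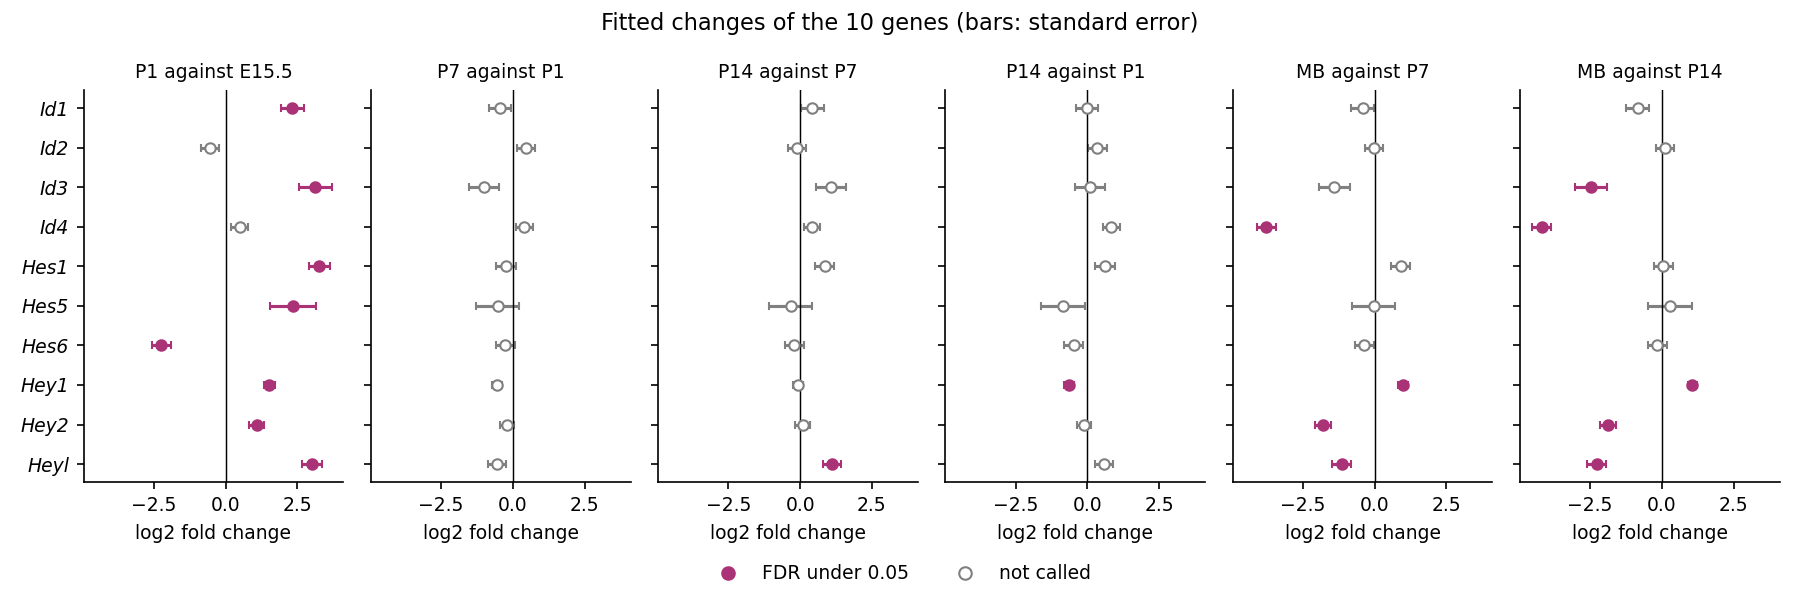
Fitted log2 fold change of each gene in the 6 comparisons, with standard errors; filled symbols have an edgeR FDR under 0.05. The first panel holds 8 filled symbols, the 3 postnatal panels hold 0, 1 and 1, and the MB panels hold 4 and 5, with Hey1 to the right of 0 and Id4, Hey2 and Heyl to the left in both.

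MB cells were then compared with P7 precursors and, as a second reference, with P14. The comparisons share the MB libraries and are not independent. Against P7, Hey1 rose and Id4, Hey2 and Heyl fell, 4 of the 10 genes (13.7% of all genes were called higher in MB and 20.7% lower). Against P14, Hey1 rose and Id3, Id4, Hey2 and Heyl fell, 5 of 10 (22.9% of all genes were called higher and 27.2% lower). The median log2 fold change of the 10 genes was -0.40 against P7 and -0.51 against P14, with 0.02 and 0.01 over all genes.

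Id4 showed the largest change of the 10. It had 3.89, 6.18 and 4.16 CPM in MB replicates 1 to 3, while the lowest P7 or P14 library had 37.4 CPM. The MB libraries were also below every E15.5 and P1 library. Id4 was 13.7-fold lower than at P7 (log2 -3.77 ± 0.33, SE, n = 3 per group, edgeR FDR 6.92e-07) and 18.3-fold lower than at P14 (log2 -4.19 ± 0.34, edgeR FDR 2.21e-07). Within a counting set the values were -4.07 for MB replicate 1 against P7 (edgeR FDR 1.36e-04) and -4.07 for MB replicates 2 and 3 against P14 (edgeR FDR 4.14e-06). Without MB replicate 1 it was -3.65 against P7 (edgeR FDR 6.07e-06).

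Hey1 was the only member that edgeR called higher in MB over all 3 libraries; for Hes1 against P7 other settings made that call, as given below. Its MB libraries had 209, 187 and 207 CPM, and no library of any other group reached 187 CPM. The P1 libraries came nearest, at up to 174 CPM. Hey1 was 1.97-fold higher than at P7 (log2 0.98 ± 0.17, SE, n = 3 per group, edgeR FDR 4.23e-04) and 2.08-fold higher than at P14 (log2 1.06 ± 0.17, edgeR FDR 1.39e-04). Within a counting set it was 1.03 against P7 (edgeR FDR 0.00340) and 1.03 against P14 (edgeR FDR 5.18e-04).

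Hey2, in the same gene family, went down. It had 1.35, 2.22 and 1.6 CPM in MB, against 5.06, 6.95 and 6.09 CPM at P7 and 6.27, 6.81 and 6.15 CPM at P14. The MB libraries were below those of all other groups, E15.5 included. The gene was 3.47-fold lower than at P7 (log2 -1.79 ± 0.27, SE, n = 3 per group, edgeR FDR 9.18e-05) and 3.69-fold lower than at P14 (log2 -1.88 ± 0.27, edgeR FDR 3.74e-05). Within a counting set it was -2.16 against P7 (edgeR FDR 9.28e-04) and -1.73 against P14 (edgeR FDR 1.98e-04).

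Heyl had 2.74, 3.44 and 3.24 CPM in MB, below all postnatal libraries and above those of E15.5. It was 2.23-fold lower than at P7 (log2 -1.15 ± 0.32, SE, n = 3 per group, edgeR FDR 0.0106) and 4.81-fold lower than at P14 (log2 -2.27 ± 0.33, edgeR FDR 4.44e-05). Against P7 the call was lost with the counting set as a term (-0.92, edgeR FDR 0.128) and without P7 replicate 1 (-0.99, edgeR FDR 0.0512), and within a counting set it was -1.35 (edgeR FDR 0.0161). Within a counting set against P14 it was -2.18 (edgeR FDR 7.33e-05).

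Id3 had 9.56, 16.8 and 19.4 CPM in MB, below every P7 and P14 library. Against P14 it was 5.59-fold lower (log2 -2.48 ± 0.55, SE, n = 3 per group, edgeR FDR 0.00159). Against P7 the log2 fold change was -1.40 ± 0.53 (SE, n = 3 per group, edgeR FDR 0.0533), just short of the threshold. Of 15 alternatives 6 called it, DESeq2 among them (adjusted p 0.0243). Without MB replicate 1 it was -1.16 (edgeR FDR 0.139), and with the counting set as a term -1.03 (edgeR FDR 0.379). Id1, at 13.9, 48.2 and 38.1 CPM in MB, overlapped P7 and P14 and was not called (log2 -0.42 ± 0.39 and -0.85 ± 0.39, SE, n = 3 per group, edgeR FDR 0.436 and 0.0821).

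Hes1, Hes5, Hes6 and Id1 varied more among the MB libraries than the MB and P7 groups differed. Hes5 had 0.674, 21.1 and 18.0 CPM in MB replicates 1 to 3, from 17, 864 and 449 counts. Hes1 had 18.0, 45.2 and 44.2 CPM in the same order, and Hes6 had 29.5, 78.8 and 69.3 CPM. MB replicate 1 was the low library in all 3 genes and in Id1, and the high one for Id2, at 339 CPM against 168 and 148. It was also the lowest MB library for Id3, Id4, Hey2 and Heyl, at the values given above. Over all 3 MB libraries against P7, the log2 fold change was -0.04 ± 0.76 for Hes5 (SE, n = 3 per group, edgeR FDR 0.977), 0.90 ± 0.34 for Hes1 (edgeR FDR 0.0544; called by DESeq2 at an adjusted p of 0.0286 and by edgeR with RLE factors at an FDR of 0.0465, both with a log2 fold change of 0.91) and -0.37 ± 0.33 for Hes6 (edgeR FDR 0.428).

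MB replicate 1 is also the only MB library in the counting set of the P7 libraries. Against P7 it alone gave log2 fold changes of -4.33 for Hes5 (edgeR FDR 6.27e-04), -1.37 for Hes6 (edgeR FDR 0.00611), -1.69 for Id1 (edgeR FDR 0.00781) and -0.09 for Hes1 (edgeR FDR 0.854), and 8 of the 10 genes were called, as were 6049 of the 15259 genes tested (2627 higher and 3422 lower). That fit assumes that the lone library varies as the other groups do. Without it, MB replicates 2 and 3 against P7 gave 1.22 for Hes1 (edgeR FDR 0.00403), so that Hes1 was called higher, and 0.52 for Hes5 (edgeR FDR 0.461). They gave -0.04 for Hes6 (edgeR FDR 0.925) and -0.06 for Id1 (edgeR FDR 0.916). Against P14, Hes1 was not called over all 3 MB libraries (log2 0.05 ± 0.34, SE, n = 3 per group, edgeR FDR 0.916). Without MB replicate 1 it was 0.37 (edgeR FDR 0.304). Hes5 (0.29 ± 0.76, edgeR FDR 0.778) and Hes6 (-0.16 ± 0.33, edgeR FDR 0.708) were not called against P14 either. For Hes1, Hes5, Hes6 and Id1 the gene and transcript counts differed by at most a few percent in both counting sets, as given above.

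Several marker lists were lower in MB than at P7. All 10 endothelium genes fell, with sums of 30.6 to 47.3 CPM in MB, and 5 of 9 pericyte and smooth muscle genes fell, with sums of 73.1 to 76.8 CPM. Against P14, 10 of 10 and 8 of 9 fell. The astroglia list had 6 genes lower and 2 higher than at P7, with sums of 1904 to 2207 CPM in MB and 2460 to 4802 CPM at P7. All 7 GABAergic interneuron genes fell, to sums of 1.64 to 3.09 CPM, while 3 of 8 microglia and macrophage genes rose (130 to 385 CPM). Against P7, 5 of 8 oligodendrocyte genes fell and 2 rose, and 5 of 7 Purkinje cell genes fell and 1 rose. Granule neuron markers fell in 4 of 9 genes against P7 and in 9 of 9 against P14. Of the 12 precursor markers, 5 rose and 2 fell against P7. The part of these cells in the falls of Id3, Id4, Hey2 and Heyl was not tested.

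**Figure D4:**
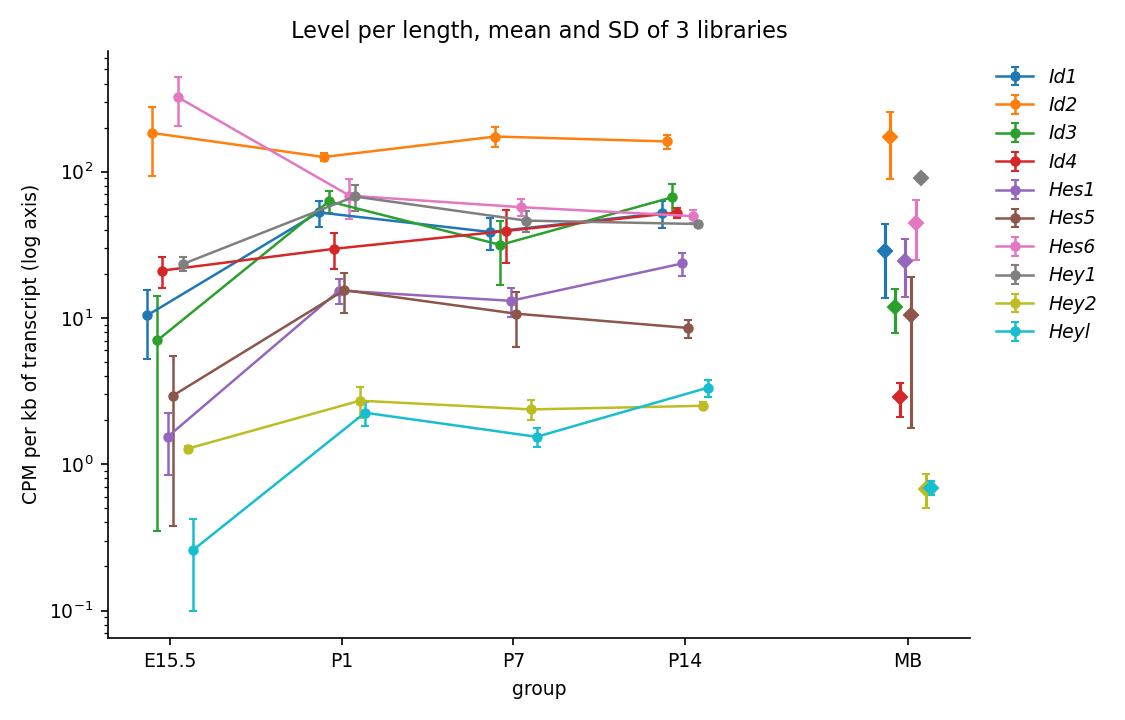
Mean level per transcript length (CPM per kb, log axis) of the 10 genes by age and, apart, in MB; bars are the SD of 3 libraries, with lower bars shortened where they would reach 0. Hes6 was highest at E15.5 (323) and Id2 in the other 4 groups (126 to 174), while Hey2 and Heyl were lowest throughout.

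Levels were compared between genes only per length of transcript, in CPM per kb. At E15.5 the order began with Hes6 at 323 ± 118 and Id2 at 184 ± 91.1 (SD, n = 3). Their SDs overlapped, but Hes6 was above Id2 in each library (308, 213 and 448 against 131, 132 and 289). The order then fell to Hey1 at 23.4 ± 2.61 and Id4 at 21.1 ± 5.11. Hes1 (1.54 ± 0.692), Hey2 (1.28 ± 0.0552) and Heyl (0.260 ± 0.161) were the lowest. At P1 Id2 led at 126 ± 7.38, followed by Hes6 (68.6 ± 21.0), Hey1 (67.7 ± 13.5), Id3 (62.7 ± 10.7) and Id1 (52.7 ± 10.6), whose SDs overlapped. At P14 Id2 was at 161 ± 18.1, and Id3 (mean 66.8, from 55.8 to 84.5 in the 3 libraries), Id4 (52.6 ± 4.11), Id1 (52.1 ± 10.7), Hes6 (49.7 ± 5.38) and Hey1 (43.9 ± 2.19) followed, with overlapping SDs between neighbours. At P7 the order was Id2 (174 ± 27.2), then Hes6 (57.2 ± 7.77), Hey1 (46.3 ± 7.46), Id4 (39.3 ± 15.4), Id1 (38.7 ± 9.70) and Id3 (31.6 ± 14.7), and from Hes6 on the SDs of neighbours overlapped. In MB the first places were Id2 at 172 ± 82.9 and Hey1 at 91.2 ± 5.58. Their SDs overlapped, but every Id2 value (267, 132 and 116) was above every Hey1 value (94.7, 84.7 and 94.1). Then came Hes6 at 44.4 ± 19.6, Id1 at 28.8 ± 15.2, Hes1 at 24.4 ± 10.5, Id3 at 11.9 ± 3.99 and Hes5 at 10.4 ± 8.64. Id4, the third of the 10 at P14, was the eighth in MB at 2.86 ± 0.754.

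The upstream genes of these repressors were read from lists of Notch and BMP pathway genes, beside the share of all genes called in the same comparison. For every list below, the postnatal shares of all genes that rose and fell were 1.4% and 1.74% between P1 and P7. They were 5.81% and 4.51% between P7 and P14, and 3.63% and 5.31% between P1 and P14. Between E15.5 and P1, 8 of 20 Notch genes rose and 5 fell, where 25.4% of all genes rose and 20.9% fell (median log2 fold change 0.11), so the share that fell was near that of all genes. Lfng, which modifies Notch, rose from 4.17 ± 3.08 to 50.8 ± 4.63 CPM (SD, n = 3, log2 3.55, edgeR FDR 4.89e-05). Dll4, a Notch ligand of vessels, rose from 3.98 ± 1.12 to 17.4 ± 5.46 CPM (SD, n = 3, log2 2.10, edgeR FDR 4.38e-05). None of the Notch genes was called between P1 and P7. Between P7 and P14, 2 rose and 1 fell, with Dll4 up (log2 1.28, edgeR FDR 0.0135) and Dll1, a ligand of neural progenitors, down (log2 -1.33, edgeR FDR 0.0129). Between P1 and P14, 2 rose and 3 fell, Dll1 (log2 -1.90, edgeR FDR 0.00197) and Dll3 (log2 -1.41, edgeR FDR 0.0475) among them.

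In MB the Notch genes were mixed. Against P7, 4 of 20 rose and 6 fell (13.7% and 20.7% of all genes; median log2 fold change -0.21), and against P14, 3 rose and 8 fell (22.9% and 27.2% of all genes; median -0.08). The receptor Notch3, which is also a pericyte gene, went from 45.3 ± 21.8 CPM at P7 to 7.35 ± 3.81 CPM in MB (SD, n = 3, log2 -2.62, edgeR FDR 1.22e-04). The ligand Jag2 went from 18.5 ± 2.36 to 1.38 ± 0.533 CPM (SD, n = 3, log2 -3.74, edgeR FDR 1.73e-07). Both were lower than at P14 as well, by log2 fold changes of -3.25 for Notch3 (edgeR FDR 1.34e-05) and -4.75 for Jag2 (edgeR FDR 2.95e-08). Hey1 was thus higher, and Hey2 and Heyl lower, in MB libraries where Notch3 and Jag2 were lower and 4 other Notch genes were higher than at P7. Whether the Hey and Notch values are linked was not tested.

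The BMP list holds ligands, receptors, Smads and inhibitors of the pathway. Between E15.5 and P1, 12 of its 22 genes rose and 1 fell, beside 25.4% and 20.9% of all genes (median log2 fold change 0.53). The ligand Bmp4 was at 0.117 ± 0.0585 CPM at E15.5 and 6.34 ± 3.23 at P1 (SD, n = 3, log2 5.93, edgeR FDR 2.27e-06), and the ligand Bmp5 at 0.572 ± 0.156 and 18.7 ± 2.32 (SD, n = 3, log2 5.02, edgeR FDR 4.29e-04). None was called between P1 and P7 or between P7 and P14, and between P1 and P14 only Smad5, a signal carrier, was called (log2 -0.58, edgeR FDR 0.0257).

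In MB 10 of the 22 BMP genes fell and none rose against P7, beside 20.7% and 13.7% of all genes (median log2 fold change -1.25). Of the 10, 5 were inhibitors of the pathway (Smad6, Smad7, Bambi, Nog and Chrd), 4 were ligands and 1 was a receptor. Bmp4 went from 8.45 ± 1.86 to 0.237 ± 0.134 CPM (SD, n = 3, log2 -5.05, edgeR FDR 2.08e-06). The ligand Bmp6 went from 13.9 ± 0.732 to 0.330 ± 0.163 CPM (SD, n = 3, log2 -5.31, edgeR FDR 1.71e-07). Against P14, 13 fell and 2 rose (27.2% and 22.9% of all genes; median -1.44), with Bmp4 at a log2 fold change of -5.84 (edgeR FDR 4.46e-07) and Bmp6 at -5.81 (edgeR FDR 7.49e-08). In these comparisons Id4 fell in both, Id3 fell against P14, and Id1 and Id2 were not called.

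The partners and antagonists of the repressors were read in the same way. Among 12 E proteins and proneural factors, 3 rose and 2 fell at P1 against E15.5, shares near those of all genes (25.4% and 20.9%), with Neurod6, a neuronal factor, down (log2 -2.47, edgeR FDR 2.32e-06). From P1 to P7 only Neurod6 was called, and it rose (log2 0.97, edgeR FDR 0.0378). Between P7 and P14, 5 of the 12 fell and none rose (4.51% and 5.81% of all genes). Neurog2 was among those that fell (log2 -2.13, edgeR FDR 0.00873). Between P1 and P14, 4 of the 12 fell and none rose (5.31% and 3.63% of all genes), again with Neurog2 (log2 -2.33, edgeR FDR 0.00418).

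In MB, 2 of these 12 rose and 6 fell against P7 (13.7% and 20.7% of all genes), and 3 rose and 4 fell against P14 (22.9% and 27.2%). Neurod2, a factor of maturing neurons, went from 283 ± 83.1 CPM at P7 to 5.56 ± 5.34 in MB (SD, n = 3, log2 -5.69, edgeR FDR 1.96e-06), and against P14 the log2 fold change was -5.98 (edgeR FDR 8.88e-07). Neurog2 had 2 counts over the 3 MB libraries and 1108 over the 3 P7 libraries. After scaling, the P7 to MB ratio was 524, with an exact 95% interval of 145 to 4329 that covers counting error only. Against P14, with 244 counts, the ratio was 120 (interval 32.8 to 995).

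Of 6 listed genes of the Groucho/TLE family, 5 were tested. Tle6 (log2 -2.47, edgeR FDR 6.10e-06) and Tle1 (log2 -0.77, edgeR FDR 0.00122) fell at P1 against E15.5 and none rose. Of all genes, 20.9% fell and 25.4% rose. None was called between P1 and P7 or between P7 and P14, and Tle2 rose between P1 and P14 (log2 1.46, edgeR FDR 0.0309). Tle1 and Tle4 rose in MB against P7, by 0.78 (edgeR FDR 0.00136) and 0.82 (edgeR FDR 0.00134) on the log2 scale. None fell, where 13.7% of all genes rose and 20.7% fell. Against P14, 2 of the 5 rose and 1 fell (22.9% and 27.2% of all genes), with Tle1 at 1.19 (edgeR FDR 2.45e-05) and Tle2 at -1.31 (edgeR FDR 0.00912).

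Of 6 relatives of the Hes and Hey genes with the same Orange domain, 4 were tested. At P1 against E15.5, 2 of the 4 rose and 1 fell (25.4% and 20.9% of all genes). The clock-related repressors Bhlhe40 (log2 4.06, edgeR FDR 2.89e-06) and Bhlhe41 (log2 2.27, edgeR FDR 1.33e-04) were higher. None was called in the 3 postnatal comparisons. Only Bhlhe41 was called in MB, and it rose against P7 (log2 1.71, edgeR FDR 9.55e-04) and P14 (log2 0.91, edgeR FDR 0.0302). Of all genes, 13.7% rose against P7 and 22.9% against P14.

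The genes most like each member were found by Pearson's r of log2 CPM over the 15 libraries, among 11575 candidates (11576 for Hey2). The libraries share their groups, so these values describe the order of groups and carry no test. Heyl was most like Igfbp7 (0.989), Apln (0.988) and Slc38a3 (0.985), and Id3 was most like Gng11 (0.961), Apln (0.959) and Cldn5 (0.959), where Cldn5 is a tight junction gene of brain endothelium. Id4 was most like Msx2 (0.985), Atp1b1 (0.985) and Adra2c (0.980), where Msx2 is a homeobox gene known as a BMP target. Hes5 was most like Fzd9 (0.984), Phgdh (0.933) and Sox21 (0.896), and Hes1 was most like Tnfrsf1a (0.983), Slc12a4 (0.974) and Bcl6b (0.973).

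For Hes6 the nearest genes were Pafah1b3 (0.974), Lhpp (0.971) and Gfod2 (0.970). Hey1 was nearest to Mthfd1l (0.962), Ankdd1a (0.955) and Adamts14 (0.955), and Hey2 to Rasgrp1 (0.966), Egflam (0.959) and Chst3 (0.954). For Id1 they were Sox8 (0.955), Tagln2 (0.947) and Tst (0.947). The lowest first value was that of Id2, with Cfap36 (0.900), Rnf34 (0.897) and Pdxdc1 (0.881). Apln was the only gene named for more than 1 member.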

How the data were processed

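Poly(A) RNA of 15 mouse libraries was measured. Per the submitters' processing notes, Trimmomatic, TopHat, StringTie and HTSeq were used with the build mm9; their versions, their order and the strand setting are not given in the sources used here, so reads of a gene and an antisense partner cannot be told apart. The authors deposited raw read counts per gene, transcript and start-site model, and the gene counts were the main table. HTSeq's summary lines, which name no gene, stayed out: 14.1% to 29.2% of a library's records lay in no gene, 0.52% to 0.749% over several genes and 22.9% to 44.6% aligned several times.

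Symbols were matched for 20358 of 21889 genes by Ensembl ID. With edgeR 4.0.16 (R 4.3.3), genes were kept by filterByExpr (minimum count 10, total 15; 15259 genes), libraries were scaled by TMM, and quasi-likelihood tests used all 15 libraries (10 residual degrees of freedom), with Benjamini-Hochberg FDR over all genes tested. CPM uses the TMM-scaled totals. Calls needed an FDR under 0.05. The fit was tested on simulated counts.

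The members, lists and tests were chosen with earlier results of these data known. List genes were named by rule: per comparison, the 2 called genes with the largest change among those with a mean of at least 5 CPM, and per member the 3 genes with the highest correlation (log2 CPM, prior count 2). 1 list gene that the rule names is not reported here. Maml2 and Tle5 were not matched, and Hes2 and Helt were too low to test. Atoh1, Gabra6 and Tsnax describe the libraries and were chosen after their values were seen. Alternatives were RLE and upper quartile factors, no filter, DESeq2 1.42.0, a replicate block, the groups alone, the other tables, the counting set and leaving out each library. Promoters are RefSeq's (GRCm38.p6), and gene positions are mm9 from the transcript table; they were not converted.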

Additional observations from a re-analysis of the deposited data

How the results depend on the processing

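Over 922 recomputed values of the single genes, 879 kept their side of the threshold, 22 lost the call and 21 gained it. The sign differed in 40, none of them a value that was called. Id4, Hey1 and Hey2 were called in MB against P7 and P14 in all 16 alternatives run. The count of called genes stayed within 1.5 times its first value except as follows. From P1 to P7 it was 0, and DESeq2 gave 1 (Hey1), as did leaving out P1 replicate 3 (range 0 to 1 over libraries left out). From P7 to P14 it was 1 (Heyl), and the start-site table, which lacks Heyl, and the counting set as a term gave 0. Leaving out each library gave 0 to 0. The 2 groups alone gave 3 (Id3, Hes1, Heyl), in a fit that called 3838 of 14810 genes. From P1 to P14 it was 1 (Hey1), and leaving out libraries gave 0 to 2. The 2 groups alone gave 3 (Id4, Hes5, Hey1), in a fit that called 4089 of 14833 genes. For MB against P7 it was 4, and 8 within 1 counting set. For MB against P14 it was 5, and 3 in the start-site table, which holds 7 of the genes. With upper quartile factors the median of all genes moved to 0.17 in P1 against E15.5, -0.12 in P7 against P1 and -0.13 in MB against P14. With this scaling no called gene of the 10 changed sign.

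The replicate numbers were checked for pairing: over 30 pairs of same-numbered libraries, deviations from the group means correlated at -0.312 to 0.332 and 6 were over 0.1, and 5 of 15 libraries correlated best with their own number. With the replicate block the count was 0 from P7 to P14 (Heyl, log2 1.11, FDR 0.0525) and 0 from P1 to P14 (Hey1, log2 -0.63, FDR 0.0527), and the block changed no other call in the 6 comparisons. The lowest counts were 7 for Heyl, 13 for Hes5 and 17 for Hes1, all in E15.5 replicate 2, and 17 for Hes5 in MB replicate 1, which limits the precision of those values.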
